A study of Mus musculus with 2 samples.

Results

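Osteopontin (Spp1), dentin matrix protein 1 (Dmp1) and the hyaluronan and osteopontin receptor Cd44 were followed through the cells of dissociated mouse tumours. They are 3 of the 9127 gene symbols listed in both count tables. With earlier results of these data known, they were chosen by name as a pair of related secreted ligands and a receptor. The libraries were made from tumours of C57BL/6 mice that carried Cdh5-cre and a floxed Myct1 allele on both chromosomes (written Cdh-cre in the genotype label, Cdh5-cre in the series title), called the Myct1 knockout here, and from tumours of C57BL/6 mice labelled WT. Cdh5 encodes the endothelial cadherin, so this driver directs Cre to endothelial cells, and whether tumour cells, fibroblasts or macrophages carried a deleted allele was not measured. The label WT does not say whether these mice carried Cre or a floxed allele. Neither the age of the mice nor the tumour model is given in the sources used here. Each genotype was 1 droplet library, pooled from the tumours of 4 mice after digestion with Collagenase-II, Dispase-II and Deoxyribonuclease. With 1 library per genotype, no difference was tested, genotype and library cannot be told apart, and every interval below is an exact 95% interval that covers counting error only.

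Osteopontin and Dmp1 belong to the SIBLING family, acidic secreted glycoproteins whose genes lie side by side and whose best known place is mineralising bone and dentin. Osteopontin carries an integrin-binding motif, also engages Cd44, and in tumours is known as a product of cancer cells, macrophages and fibroblasts. Cd44 is a transmembrane receptor for hyaluronan that is made in many spliced forms and is anchored to actin by ezrin, radixin and moesin.

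Spp1 (ENSMUSG00000029304.14) lies at chr5:104435118-104441050 on the plus strand of GRCm38, the assembly also called mm10, and Dmp1 (ENSMUSG00000029307.7) at chr5:104202613-104214102 on the same strand. The gap between them is 221015 bases, and the bone sialoprotein gene Ibsp and the matrix phosphoglycoprotein gene Mepe lie within it. Cd44 (ENSMUSG00000005087.17) is at chr2:102811141-102901665 on the minus strand. Its 8 annotated protein-coding transcripts have 9 to 19 exons, and 3′ counts do not separate those forms. The 250 bases before the RefSeq start of each gene (GRCm38.p6, 3 of 3 genes matched) are given 5′ to 3′ on the gene's own strand, because Spp1 and Dmp1 were counted in the same cells and Cd44 was spread differently. Capitals mark matches, on either strand, to TATAAA or to its variant TTTAAA, to the Runx-type letters AACCACA, the AP-1 type letters TGANTCA (N is any base) and the GC box GGGCGG.
Spp1, chr5:104434861-104435110, plus strand: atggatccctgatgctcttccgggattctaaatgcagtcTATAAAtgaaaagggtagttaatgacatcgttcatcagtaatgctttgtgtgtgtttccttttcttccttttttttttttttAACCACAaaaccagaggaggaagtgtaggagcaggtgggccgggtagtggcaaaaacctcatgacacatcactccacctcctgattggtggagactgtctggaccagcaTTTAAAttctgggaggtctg
Dmp1, chr5:104202367-104202616, plus strand: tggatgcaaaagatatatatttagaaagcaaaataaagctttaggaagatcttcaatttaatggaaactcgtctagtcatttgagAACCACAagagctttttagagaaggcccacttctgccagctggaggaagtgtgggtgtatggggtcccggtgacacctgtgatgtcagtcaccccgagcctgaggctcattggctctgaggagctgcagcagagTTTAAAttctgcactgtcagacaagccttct
Cd44, chr2:102901666-102901915, minus strand: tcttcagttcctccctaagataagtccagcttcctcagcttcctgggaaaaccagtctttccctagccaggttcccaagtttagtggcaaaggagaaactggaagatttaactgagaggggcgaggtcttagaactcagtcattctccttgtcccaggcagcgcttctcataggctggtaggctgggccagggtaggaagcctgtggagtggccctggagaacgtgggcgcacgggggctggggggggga
The Spp1 and Dmp1 windows each held 1 AACCACA, starting 129 bases before the Spp1 start and 165 bases before the Dmp1 start, and 1 TTTAAA, starting 20 and 31 bases before those starts. None of the marked matches overlaps another. Among 32536 different promoter windows of the same length, 4.41% held AACCACA, 12.0% held TTTAAA and 0.695% held both. The 11 letters TTTAAATTCTG occurred in both windows and in 0.04% of all windows, and GGAGGAAGTGT occurred in both and in 0.138%. TATAAA was found in the Spp1 window alone of the 3 and in 12.3% of all windows. The Cd44 window held none of the searched letters, which occur in 6.73% (TGANTCA) and 33.0% (GGGCGG) of all windows for the remaining pair. These matches describe letters and do not show a binding site.

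The knockout library held 10700 barcodes and 145331950 unique molecular identifiers (UMIs, each marking 1 captured transcript), against 10880 barcodes and 115519153 UMIs in WT. Before any level was computed, 218 barcodes were found to occur in both libraries with nearly proportional UMI totals. The knockout total over the WT total had a median of 0.900 and quartiles of 0.862 and 0.951, and the median depth was 622 UMIs in the knockout and 689.5 in WT. These barcodes were left out, and results that rest on them are given with and without them. After filters on genes, mitochondrial share and doublets, 7884 knockout and 7692 WT cells were kept, with median depths of 15763 and 10957.5 UMIs. Marker gates placed 6614 knockout cells (83.9%) and 3629 WT cells (47.2%) in a Krt8/Krt18 positive class, whose summed Krt8 and Krt18 level was 1677 CPM (UMIs per 1000000 UMIs of the class) in the knockout and 1422 CPM in WT. The other epithelial markers Epcam and Cdh1 summed to 1.06 CPM in the knockout and 5.63 CPM in WT in that class, so the class is named by its 2 keratins. The samples are labelled as endothelial cells, yet the endothelial gate held 256 knockout cells (3.25%) and 484 WT cells (6.29%), in which all 9 endothelial markers were detected in both libraries. Postn-type fibroblasts numbered 43 in the knockout and 314 in WT, Pi16-type fibroblasts 19 and 1832, and macrophages 6 and 22. The targeted gene, Myct1, had 884 UMIs in 362 of 484 WT endothelial cells, and its level in the knockout library was not analysed here, because only the WT table lists it and each table lists only genes that reach 4 UMIs in a barcode.

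Spp1 was abundant in Krt8/Krt18 positive cells, Postn-type fibroblasts and macrophages, and sparse in Pi16-type fibroblasts and endothelial cells. In Krt8/Krt18 positive cells it stood at 1868 CPM in the knockout (1860 to 1876, 222190 UMIs) and 953 CPM in WT (945 to 961, 56834 UMIs). The level was 1.96-fold higher in the knockout, a log2 ratio of 0.97 (0.96 to 0.98). Among the 1436 genes that reached 100 CPM in 1 library in this class, the knockout level was higher by 2-fold or more, with an interval excluding no difference, for 0.487% and lower by 2-fold or more for 0.627%. Spp1 fell just short of that fold, with 0.487% of the tested genes at a higher ratio, and Cd44 did not meet it. Dmp1, under 100 CPM in both libraries, was not part of that count. TMM scaling, which assumes that most genes are alike between the libraries, shifted the log2 ratios of this class by 0.24 and gave 33 genes higher and 2 lower in place of 7 higher and 9 lower. Under that scaling the Spp1 log2 ratio was 1.21, and relative to genes of like transcript length it was 0.65.

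**Figure D1:**
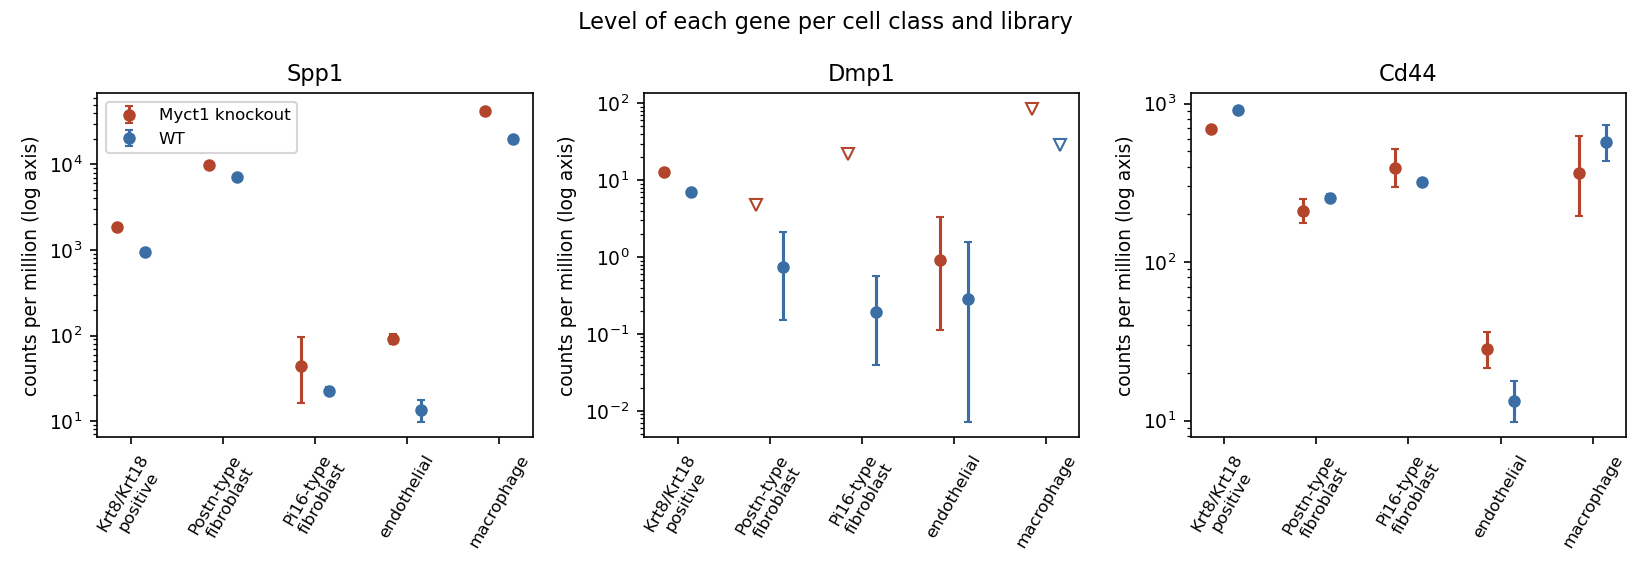
Level of Spp1, Dmp1 and Cd44 in CPM (UMIs per 1000000 UMIs of a class, log axis) in each cell class, Myct1 knockout left of WT. Points are sums over the cells of a class in 1 library, bars are exact 95% counting intervals, and open triangles mark the level that 3 UMIs would give where none was counted. Spp1 spans 13.4 to 42026 CPM between classes, and Dmp1 is counted above 1 CPM in Krt8/Krt18 positive cells alone of these classes.

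More of the knockout cells held Spp1, and they held more of it. A UMI of Spp1 was found in 97.1% of knockout and 88.5% of WT Krt8/Krt18 positive cells, at median depths of 16802 and 16170 UMIs. After each cell had been thinned to 3000 UMIs, which left out 90 knockout and 104 WT cells, the shares were 85.9% in the knockout (85.0 to 86.7%) and 68.7% in WT (67.2 to 70.3%). The median cell had 11.5 Spp1 UMIs per 10000 UMIs in the knockout and 4.66 in WT, the cell at the 90th percentile 43.4 and 19.3, and the highest cell 612 and 454. The ranges of the libraries therefore overlapped along nearly their whole length. In the same cells the 11 listed macrophage markers summed to 15.3 CPM in the knockout and 15.2 CPM in WT, and the 8 Postn-type markers to 319 and 596 CPM, with none of either list at 0. The highest single Postn-type marker made up 256 CPM of that sum in the knockout and 513 CPM in WT, and the lowest 0.0503 and 0.601 CPM.

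**Figure D2:**
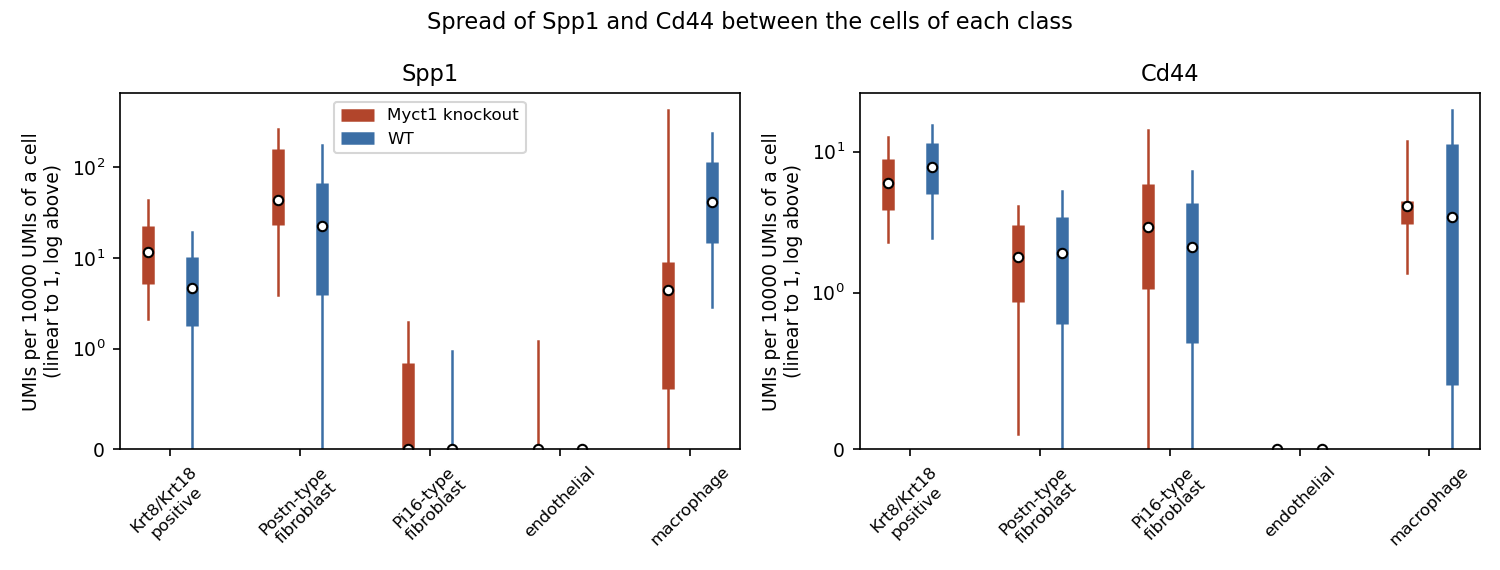
Spp1 and Cd44 UMIs per 10000 UMIs of a cell (linear to 1, log above) by class, Myct1 knockout left of WT. White points are medians over cells, thick bars the 25th to 75th percentile and thin lines the 10th to 90th. The median knockout Krt8/Krt18 positive cell has 11.5 Spp1 and 6.00 Cd44, against 4.66 Spp1 and 7.82 Cd44 in WT.

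Spp1 differed between the 2 gated fibroblast types, and fibroblasts that passed neither gate lay between them. Those had 914 CPM in the knockout (21 cells, 52.4% with a UMI) and 1341 CPM in WT (470 cells, 31.9% with a UMI). In Postn-type fibroblasts, matrix-producing cells that express periostin, Spp1 reached 9869 CPM in the knockout (9625 to 10119, 43 cells) and 7056 CPM in WT (6975 to 7138, 314 cells), where it ranked 5th and 10th of 9127 genes by UMI number. These levels were 5.28-fold and 7.40-fold above those of the Krt8/Krt18 positive cells of the same library. The log2 ratio of knockout over WT was 0.48 (0.44 to 0.52), and it was 0.20 relative to genes of like length. Spp1 is not among the 1.89% of 1692 genes at least 2-fold higher or the 4.61% at least 2-fold lower in the knockout in this class. In Pi16-type fibroblasts, which express the adventitial fibroblast marker Pi16, Spp1 was 43.8 CPM in the knockout (16.1 to 95.4, 6 UMIs in 19 cells) and 22.8 CPM in WT (20.5 to 25.3, 356 UMIs in 1832 cells). The log2 ratio was 0.95 (-0.51 to 2.08), and with looser gates it was 2.11 (1.53 to 2.64), an interval that excludes no difference. There 3.62% of 1767 genes were at least 2-fold higher and 2.49% lower in the knockout, and Spp1, under 100 CPM, was not part of that count. The thinned share of Pi16-type cells with a UMI was 5.88% in the knockout (1 of 17 cells) and 5.96% in WT (105 of 1761 cells).

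Endothelial cells held little Spp1, and a few cells carried most of it in the knockout. The level was 91.2 CPM in the knockout (78.9 to 105, 198 UMIs) and 13.4 CPM in WT (9.82 to 17.8, 47 UMIs), a log2 ratio of 2.77 (2.30 to 3.26). With stricter gates that ratio was 1.80 (1.12 to 2.50), and with looser gates 3.38 (2.98 to 3.81). Of the 1990 genes reaching 100 CPM in this class, 3.27% were called higher and 12.5% lower in the knockout, by 2-fold or more. Spp1 stayed under 100 CPM and was not part of that count. Of the tested genes 0% had a higher ratio, but they are more abundant than Spp1, whose ratio rests largely on the few cells described next. In the knockout, 7 of 256 endothelial cells had 4 or more Spp1 UMIs and together held 77.8% of the endothelial Spp1 UMIs, whereas 1 of 484 WT endothelial cells reached 4. Those 7 cells held 13 keratin UMIs, 4 of them held none, and they had a median of 8 of the 9 endothelial markers. The other 249 knockout endothelial cells held 33 keratin UMIs, and 219 of them held none. In the 7 cells Spp1 was 1571 CPM and Cd44 was 388 CPM. The part of transcripts from Krt8/Krt18 positive cells in these 7 was not tested. The 11 listed macrophage markers summed to 23.9 CPM in the knockout and 28.9 CPM in WT in the endothelial class, with 4 of them at 0 in each library. The remaining cells averaged 21.1 CPM in the knockout and 12.1 CPM in WT. Among endothelial cells with no Krt8 or Krt18 UMI, Spp1 was 57.3 CPM in the knockout (223 cells) and 12.5 CPM in WT (461 cells).

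Macrophages had the highest level of all classes, but the knockout value is that of 1 cell. Spp1 was the gene with the most UMIs in this class in both libraries, at 42026 CPM in the knockout (1500 UMIs in 6 cells) and 19815 CPM in WT (2050 UMIs in 22 cells). The 6 knockout cells held 1493, 5, 1, 1, 0 and 0 Spp1 UMIs. The WT cells ranged from 0 to 957, and the WT cell with the most held 46.7% of the UMIs. Per 10000 UMIs, the median macrophage had 4.40 in the knockout and 41.2 in WT, the reverse of the order of the summed levels. Without its top cell the class had 3.93 Spp1 UMIs per 10000 in the knockout (5 cells) and 119 in WT (21 cells). With the barcodes found in both libraries, the summed level was 39980 CPM in the knockout (10 barcodes) and 19146 CPM in WT (32 barcodes). In this class 5.88% of 2057 genes were at least 2-fold higher and 4.57% lower in the knockout, and Spp1 was among the higher ones on the summed counts.

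The source of the library's Spp1 differed with the makeup of the cells. Krt8/Krt18 positive cells held 90.5% of the Spp1 UMIs of all kept cells in the knockout and 56.0% in WT. Postn-type fibroblasts held 2.51% in the knockout and 28.3% in WT, although they were 0.545% and 4.08% of the cells. Macrophages held 0.611% in the knockout and 2.02% in WT, and endothelial cells 0.0807% and 0.0463%. Fibroblasts of neither type held 0.0848% in the knockout and 6.40% in WT, and cells outside every gate 6.16% and 6.90%. Spp1 UMIs per summed Krt8 and Krt18 UMI were 1.11 in the knockout and 0.667 in WT in Krt8/Krt18 positive cells, and 363 and 799 in Postn-type fibroblasts. In Pi16-type fibroblasts the same ratio was 2.0 in the knockout (0.427 to 12.4) and 2.76 in WT (2.25 to 3.40), and in endothelial cells it was 4.30 (3.11 to 6.07) and 1.96 (1.17 to 3.35). The part of free transcripts in the Spp1 of these sparse classes was not tested. In Postn-type cells with no keratin UMI, Spp1 was 9919 CPM in the knockout (9633 to 10211, 32 cells) and 6765 CPM in WT (6681 to 6851, 282 cells), the WT value being below that of its whole class.

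**Figure D3:**
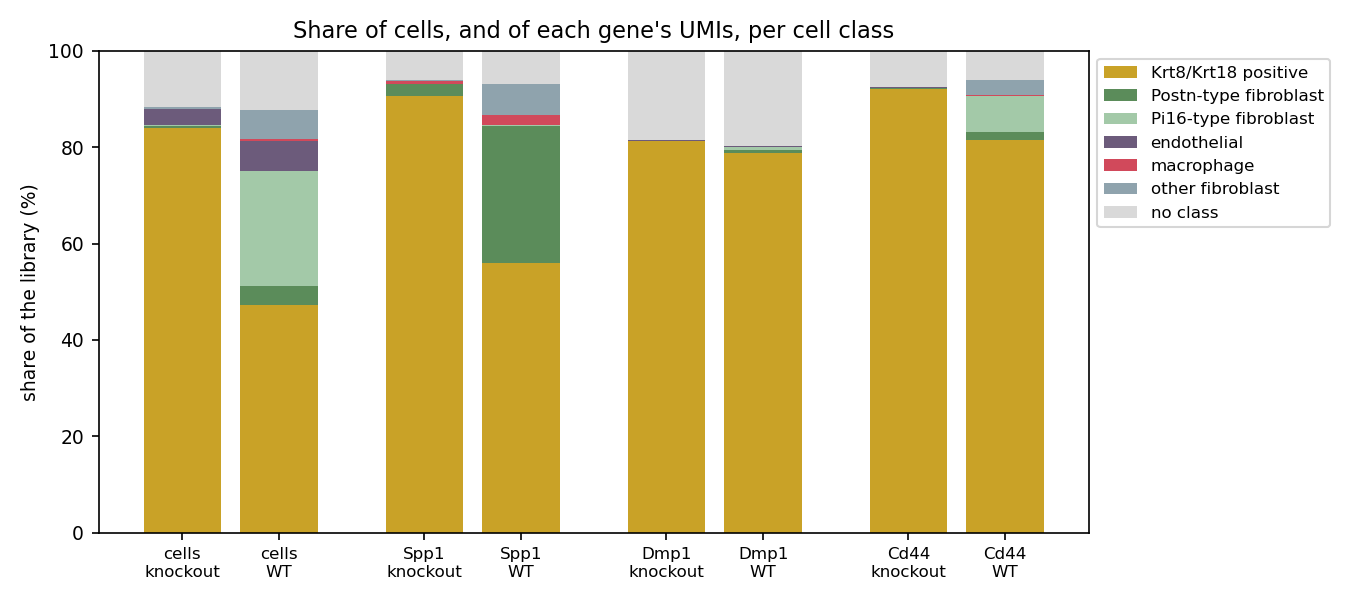
Share of all kept cells, and of each gene's UMIs, in each cell class (stacked bars, % of the library), Myct1 knockout left of WT in each pair. Krt8/Krt18 positive cells hold 90.5% of Spp1 UMIs in the knockout and 56.0% in WT, and 28.3% of WT Spp1 UMIs are in Postn-type fibroblasts, which are 4.08% of WT cells.

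Dmp1, a ligand that in bone is made by osteocytes, was rare and was found almost wholly in Krt8/Krt18 positive cells and in cells outside every gate. In the Krt8/Krt18 positive class it had 1525 UMIs in the knockout, or 12.8 CPM (12.2 to 13.5), and 413 UMIs in WT, or 6.93 CPM (6.27 to 7.63). The log2 ratio was 0.89 (0.73 to 1.05). At least 1 Dmp1 UMI was found in 366 knockout cells (5.53%) and 83 WT cells (2.29%), and in 2.38% (2.02 to 2.78%) and 0.993% (0.693 to 1.38%) of the thinned cells. A few cells carried most of it: 111 knockout cells and 26 WT cells with 4 or more UMIs held 76.3% and 80.6% of the class's Dmp1 UMIs, and the highest cells held 58 and 78. This class held 81.3% of the library's Dmp1 UMIs in the knockout and 78.8% in WT, and cells outside every gate held 18.6% and 19.8%. The level in these ungated cells was 34.2 CPM in the knockout and 14.9 CPM in WT, above that of the class in each library. In the knockout 1 cell held 51.4% of their 348 UMIs, and in WT 1 cell held 48.1% of 104.

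Elsewhere Dmp1 was at the floor. Postn-type fibroblasts had 0 UMIs in the knockout and 3 in WT, Pi16-type fibroblasts 0 and 3, endothelial cells 2 and 1, and macrophages 0 and 0. In the knockout the floor of 3 UMIs was 4.80 CPM for Postn-type fibroblasts, 21.9 CPM for Pi16-type fibroblasts and 84.1 CPM for macrophages. The exact upper limits of these counts of 0 were 5.90, 27.0 and 103 CPM. For WT macrophages the floor was 29.0 CPM and the upper limit 35.7 CPM. Dmp1 at the level of the Krt8/Krt18 positive class was thus not detectable in macrophages, or in knockout Pi16-type fibroblasts, at this depth. In WT Pi16-type fibroblasts, 1 of 1761 thinned cells held a UMI (0.0568%), against 0.993% of WT Krt8/Krt18 positive cells. Dmp1 UMIs per keratin UMI were 0.00763 in the knockout and 0.00485 in WT in Krt8/Krt18 positive cells. The ratio in WT Pi16-type cells was 0.0233 (0.00473 to 0.0695).

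Cd44, the receptor, was highest in Krt8/Krt18 positive cells of the 5 classes in both libraries, and unlike Spp1 it was lower in the knockout there. Its level was 691 CPM in the knockout (687 to 696) and 915 CPM in WT (907 to 922), a log2 ratio of -0.40 (-0.42 to -0.39), and 75.7% of the tested genes had a higher ratio. Relative to genes of like transcript length the log2 ratio was 0.0032, and under TMM scaling it was -0.16. In thinned cells 80.4% of knockout (79.4 to 81.4%) and 85.5% of WT Krt8/Krt18 positive cells (84.3 to 86.7%) held a Cd44 UMI. The median cell had 6.00 Cd44 UMIs per 10000 in the knockout and 7.82 in WT, and the 10th to 90th percentiles, 2.29 to 12.7 and 2.45 to 15.5, largely overlapped. Krt8/Krt18 positive cells held 92.1% of the Cd44 UMIs in the knockout and 81.6% in WT.

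Both fibroblast types carried Cd44 and endothelial cells barely did. Pi16-type fibroblasts had 395 CPM in the knockout (296 to 515) and 321 CPM in WT (312 to 330), and Postn-type fibroblasts had 210 CPM (175 to 249) and 253 CPM (238 to 269). The Pi16-type log2 ratio was 0.30 (-0.12 to 0.68) and the Postn-type ratio -0.27 (-0.55 to -0.01), which became 0.12 relative to genes of like length and 0.054 with looser gates. Cd44 UMIs per keratin UMI were 18.0 in the knockout and 38.9 in WT in Pi16-type cells and 7.71 and 28.7 in Postn-type cells, against 0.411 and 0.640 in Krt8/Krt18 positive cells. Macrophages had 364 CPM in the knockout (13 UMIs) and 570 CPM in WT (59 UMIs), with overlapping intervals of 194 to 623 and 434 to 736. With the barcodes of both libraries those levels were 388 CPM in the knockout and 567 CPM in WT. Cd44 was in none of the 2-fold counts of these classes. The order of levels was Krt8/Krt18 positive, Pi16-type, macrophage, Postn-type and endothelial in the knockout, where the macrophage interval spans both neighbours, and Krt8/Krt18 positive, macrophage, Pi16-type, Postn-type and endothelial in WT.

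In endothelial cells Cd44 was 28.1 CPM in the knockout (21.5 to 36.1, 61 UMIs) and 13.4 CPM in WT (9.82 to 17.8, 47 UMIs), a log2 ratio of 1.07 (0.50 to 1.65). In the knockout, 1 cell held 39.3% of those UMIs. The 7 knockout endothelial cells with 4 or more Spp1 UMIs held 38 of the 61 Cd44 UMIs, and the remaining knockout cells averaged 11.1 CPM, against 12.1 CPM in the remaining WT cells. In cells with no keratin UMI Cd44 was 11.1 CPM in the knockout (6.79 to 17.2) and 12.2 CPM in WT (8.69 to 16.6). Averaged over each cell's own CPM, the log2 ratio was -0.073, with stricter gates it was 0.069 (-0.91 to 1.00), and relative to genes of like length it was 1.82 (1.25 to 2.40). The thinned share with a UMI was 4.22% in the knockout (2.04 to 7.62%) and 3.28% in WT (1.84 to 5.34%).

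Within Krt8/Krt18 positive cells the 3 genes were spread very differently between cells. The Fano factor, the variance of the thinned UMIs over their mean, was 15.8 in the knockout and 11.2 in WT for Spp1, against a median of 1.75 and 1.43 over the 200 genes of most similar mean, of which 0 and 0 had a higher value. For Dmp1 it was 4.99 in the knockout and 7.55 in WT, against medians of 1.02 and 1.03, with 0 and 1 of 200 genes higher. Cd44 had 1.57 in the knockout and 1.77 in WT, against 1.29 and 1.42, with 56 and 61 of 200 genes higher. The 10% of cells with the most Spp1 held 44.1% of its thinned UMIs in the knockout and 48.3% in WT, while the corresponding Cd44 shares were 28.7% and 27.3%. Spp1 and Dmp1 were thus spread more unevenly between cells than nearly all of those 200 genes, and Cd44 was within their range.

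Co-detection was read in the thinned cells, against the number that the separate shares of 2 genes would give. Spp1 and Cd44 were both found in 4513 of 6524 knockout cells, 1.00 times that number, and in 2153 of 3525 WT cells, 1.04 times. A Cd44 UMI was found in 80.5% of knockout cells with Spp1 and 79.8% of those without, and in 88.9% of WT cells with Spp1 and 78.1% of those without. The odds ratio was 1.05 in the knockout and 2.23 in WT, and in 3 ranges of keratin UMIs it lay between 0.938 and 1.43 in the knockout and between 1.55 and 3.99 in WT. None of the 3 genes was found in 185 knockout and 241 WT cells.

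Dmp1 was found almost only where Spp1 was. Of the thinned cells with Dmp1, 153 of 155 in the knockout and 35 of 35 in WT also held Spp1, 1.15 and 1.45 times the number from the separate shares. The WT value is the most that the WT shares allow, and the knockout value is near its own limit. These 2 values thus reflect how common Spp1 is and do not rank the libraries. Among cells without Dmp1, 85.6% in the knockout and 68.4% in WT held Spp1, and the knockout odds ratio was 12.9. Dmp1 was found in 0.217% of knockout cells with 0 Spp1 UMIs and in 10.1% of those with 10 or more, and in 0% and 11.7% of the corresponding WT cells. Cd44 and Dmp1 were found together 0.939 times the number from the separate shares in the knockout (117 cells) and 0.969 times in WT (29 cells). All 3 genes were found in 116 knockout cells, against 107 from the separate shares, and in 29 WT cells, against 20.6.

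**Figure D4:**
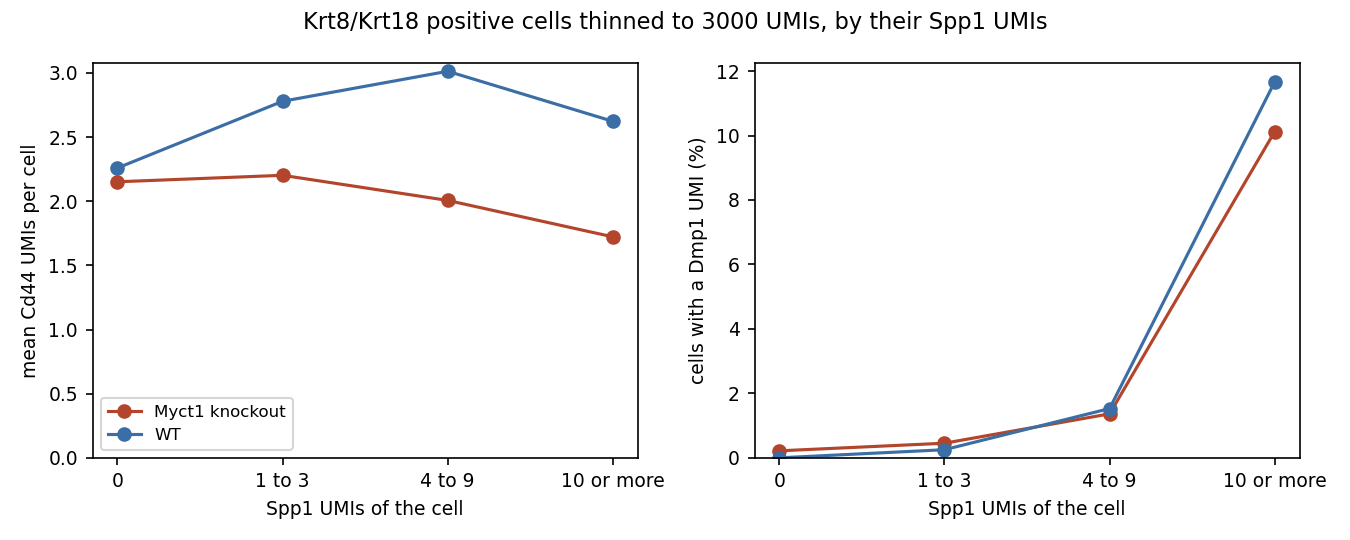
Krt8/Krt18 positive cells thinned to 3000 UMIs and split by their Spp1 UMIs: mean Cd44 UMIs per cell (left panel) and share of cells with a Dmp1 UMI in % (right panel), Myct1 knockout first in the legend. Mean Cd44 is lowest, 1.72 UMIs, in the knockout cells with most Spp1, and highest, 3.01 UMIs, in WT cells with 4 to 9 Spp1 UMIs, while the Dmp1 share reaches 10.1% in the knockout and 11.7% in WT.

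Read as levels, knockout cells with 4 or more Spp1 UMIs held less Cd44 than knockout cells with none, and WT cells with Spp1 held more Cd44 than WT cells with none. Mean thinned Cd44 at 0, 1 to 3, 4 to 9 and 10 or more Spp1 UMIs was 2.15, 2.20, 2.01 and 1.72 UMIs in the knockout, and 2.26, 2.78, 3.01 and 2.62 UMIs in WT, where the last range held 180 cells. As a description across the cells of 1 library, which share that library and its range of depths, Pearson's r of log-normalised Spp1 and Cd44 was -0.13 in 6614 knockout cells and 0.33 in 3629 WT cells, and -0.06 and 0.14 after thinning. The correlation of a cell's depth was 0.05 with Spp1 and 0.11 with Cd44 in the knockout, and 0.29 and 0.41 in WT. The part of depth in the difference between the libraries was not tested beyond thinning, under which the signs were kept. Spp1 and Dmp1 had r of 0.31 in the knockout and 0.25 in WT, and 0.21 and 0.18 after thinning.

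Spp1 was several-fold higher in the Krt8/Krt18 positive cells that held Dmp1. At 0, 1 to 3 and 4 or more Dmp1 UMIs, Spp1 was 1620, 4998 and 9148 CPM in the knockout, and 857, 2887 and 8747 CPM in WT. The median depths of these sets were 16873, 15488 and 14888 UMIs in the knockout and 16067.5, 17377 and 16515.5 UMIs in WT. In the cells with most Dmp1 the Spp1 level of the libraries was thus close, with intervals of 9013 to 9284 CPM in the knockout and 8472 to 9028 CPM in WT that just overlap. Cd44 was lower where Dmp1 was higher, at 696, 604 and 590 CPM in the knockout and 919, 822 and 624 CPM in WT. Ibsp, the bone sialoprotein gene between Dmp1 and Spp1, was 1.43, 5.62 and 13.5 CPM in the knockout (161, 25 and 26 UMIs) and 0.775, 3.59 and 0 CPM in WT (45, 4 and 0 UMIs). For that count of 0 the floor of 3 UMIs was 6.83 CPM and the exact upper limit 8.40 CPM.

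**Figure D5:**
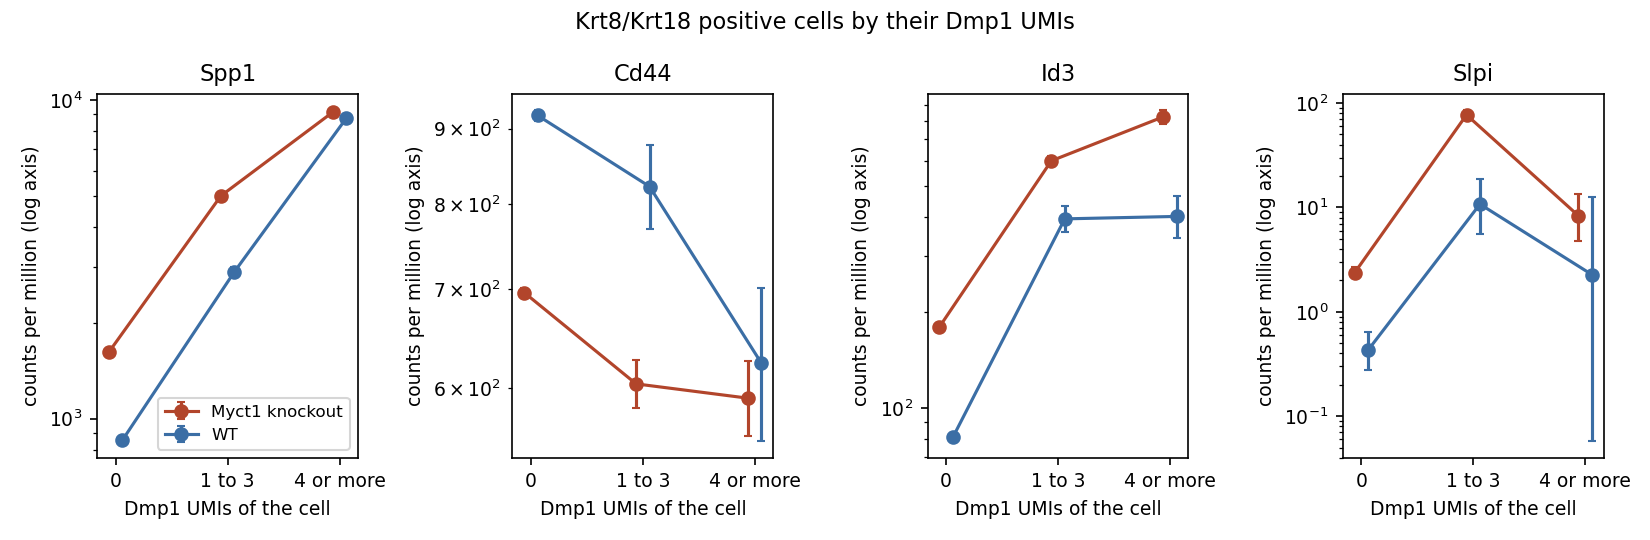
Spp1, Cd44, Id3 and Slpi in CPM (UMIs per 1000000 UMIs, log axes, not starting at 0) in Krt8/Krt18 positive cells with 0, 1 to 3 and 4 or more Dmp1 UMIs, Myct1 knockout left of WT. Points are summed counts and bars exact 95% counting intervals. Spp1 is highest with most Dmp1 in both libraries, 9148 CPM in the knockout and 8747 CPM in WT, and the highest Slpi point, 77.1 CPM, rests largely on 1 cell.

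Id3 and Slpi were listed as genes that share a state with Dmp1, a choice made with earlier results of these libraries known. Id3, an inhibitor of basic helix-loop-helix factors and a target of BMP signals, was 180, 600 and 825 CPM in the knockout and 80.7, 394 and 401 CPM in WT over the same 3 ranges of Dmp1. It was found in 61.7%, 89.8% and 92.8% of the knockout cells and 40.7%, 77.2% and 92.3% of the WT cells. In the class as a whole Id3 was 206 CPM in the knockout and 88.9 CPM in WT, a log2 ratio of 1.21 (1.17 to 1.25). Slpi, a secreted protease inhibitor, was 2.37, 77.1 and 8.33 CPM in the knockout and 0.43, 10.8 and 2.28 CPM in WT, but 1 knockout cell held 240 of the 343 UMIs behind the 77.1 CPM. It was found in 1.41%, 10.2% and 9.91% of the knockout cells and 0.451%, 12.3% and 3.85% of the WT cells, the last being 1 cell.

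The genes whose log-normalised counts were most like each member across Krt8/Krt18 positive cells were chosen by the smaller of the 2 libraries' correlations, among genes with at least 50 CPM in both. For Spp1 they were the tetraspanin gene Cd9 (r of 0.48 in the knockout and 0.46 in WT), the cathepsin gene Ctsl (0.42 and 0.46), the pyrophosphate transporter gene Ank (0.41 and 0.49), the tetraspanin gene Cd81 (0.38 and 0.39) and the membrane protein gene Itm2b (0.36 and 0.36). For Dmp1 they were the fibrillin gene Fbn1 (0.29 in the knockout and 0.28 in WT), the collagen genes Col6a1 (0.35 and 0.27) and Col3a1 (0.33 and 0.25), the matrix Gla protein gene Mgp (0.31 and 0.27), and Spp1. Col3a1 is 1 of the 8 fibroblast markers that the gate limits in this class. For Cd44 they were the calcium pump gene Atp2b1 (0.36 in the knockout and 0.47 in WT), the chaperone gene Hspa5 (0.35 and 0.49), the transcription factor gene Sox9 (0.34 and 0.45), the epithelial membrane protein gene Emp1 (0.34 and 0.47) and the RNA-binding protein gene Rbms1 (0.34 and 0.42). Among the most negative values were those of the ribosomal and elongation factor genes Rplp1, Rps14 and Eef1a1 with Spp1, of the cytokine gene Mif with Rps14 and Rplp1 for Dmp1, and of Rplp0 and the cyclophilin gene Ppia with Cd44. These ranged from -0.44 to -0.16. Thinning lowered all values for the genes most like a member, to between 0.12 and 0.31, and changed which genes ranked highest: 3 of the 5 named for Spp1, 4 of the 5 for Dmp1 and 2 of the 5 for Cd44 stayed among the 5. With stricter gates 5, 3 and 5 of them stayed. The Dmp1 genes lost were Col6a1 and Col3a1, which had no value under those gates, where the limit on fibroblast markers is lower.

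Of the receptors, ligands and modifying enzymes that work with these proteins, few differed by 2-fold. In Krt8/Krt18 positive cells, 2 of 7 listed osteopontin receptor integrin genes reached 100 CPM, and 0 were called. Of all 1436 genes tested in this class, 0.487% were called higher and 0.627% lower, so a count of 0 among 2 or 3 genes says little. The shared integrin chain gene Itgb1 had 373 CPM in the knockout and 464 CPM in WT, a log2 ratio of -0.31 (-0.34 to -0.29), and the fibronectin receptor gene Itga5 had 89.5 and 130 CPM, a log2 ratio of -0.54 (-0.58 to -0.50). The vitronectin receptor gene Itgav, a partner of osteopontin, had 71.3 CPM in the knockout and 94.3 CPM in WT. The 3 linkers of Cd44 to actin that reached 100 CPM had a median log2 ratio of -0.44, beside 0.02 over all 1436 genes, and 0 were called. Moesin (Msn) was 491 CPM in the knockout and 668 CPM in WT, ezrin (Ezr) 248 and 372 CPM, and radixin (Rdx) 141 and 138 CPM. The hyaluronan synthase gene Has2 was 90.2 CPM in the knockout and 51.3 CPM in WT. None of the 7 listed genes for hyaluronan synthesis, hyaluronan binding or other Cd44 ligands reached 100 CPM. None of 3 sheddase, 2 hyaluronidase or 7 SIBLING-processing genes in both tables reached it either. Ank, also among the genes most like Spp1, was at 425 CPM in the knockout and 427 CPM in WT, a log2 ratio of -0.01 (-0.03 to 0.01). Neither of the splicing factor genes Esrp1 and Esrp2, which steer Cd44 splicing, is listed in both tables.

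In the other classes, Itgb3, the partner of Itgav in the osteopontin-binding integrin, was 99.5 CPM in the knockout and 210 CPM in WT in endothelial cells, a log2 ratio of -1.08 (-1.30 to -0.86) and 1 of 3 integrin genes reaching 100 CPM there. Endothelial Lyve1, a hyaluronan receptor of lymphatic vessels, was 42.8 CPM in the knockout and 102 CPM in WT, and the lymphatic markers Prox1, Mmrn1 and Ccl21a summed to 293 and 416 CPM in that class, with none at 0. Whether the share of lymphatic cells plays a part in the Lyve1 value was not tested. Endothelial Tgm2, a transglutaminase that crosslinks osteopontin, was 133 CPM in the knockout and 334 CPM in WT, a log2 ratio of -1.33 (-1.52 to -1.14). These 3 lie among the 12.5% of endothelial genes called lower. In Postn-type fibroblasts the stromelysin gene Mmp3, which can cleave osteopontin, was 57.6 CPM in the knockout and 615 CPM in WT, a log2 ratio of -3.42 (-3.94 to -2.94), and in Pi16-type fibroblasts 2579 and 2289 CPM. In macrophages Tgm2 was 588 CPM in the knockout and 1402 CPM in WT, and Mmp9, another protease of osteopontin, 28.0 and 280 CPM, from 1 UMI and 29 UMIs. No listed gene was called higher in any class other than Id3 in Krt8/Krt18 positive cells.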

How the data were processed

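The authors deposited 1 table of raw UMI counts per library, genes by cell barcode, made with Cell Ranger 2.1.1 on mm10, per the submitters' processing notes. The labels' protocols name a version 1 Chromium 3′ kit. Each table lists only genes with 4 or more UMIs in some barcode. The members and lists were chosen with earlier results of these data known. Barcodes with under 200 genes (1955 knockout, 1106 WT) or over 10% mitochondrial UMIs (523 and 1654) were left out, as were barcodes found in both libraries and cells with a nearest-neighbour doublet score above 0.3, computed against simulated doublets (130 knockout, 1.62%, and 223 WT, 2.82%). Gates were set on marker genes alone, after the tables had been seen: Krt8 and Krt18 both detected, at least 6 of 8 fibroblast markers with 5 of 8 Postn-type or 7 of 10 Pi16-type markers, 5 of 9 endothelial or 5 of 9 macrophage markers, each with limits on markers of other classes. Counts were summed per class and library and scaled to CPM, UMIs per 1000000 UMIs of the shared symbols. Levels carry exact Poisson, shares exact Clopper-Pearson and ratios exact conditional binomial 95% intervals. A count of 0 was read against a floor of 3 UMIs, and a gene was called at 2-fold with 100 CPM in 1 library and an interval excluding no difference. Named genes were the members, the fixed lists (genes at 100 CPM or 2-fold different) and the 5 most and 3 least like each member, of which 1 is not reported here. No test was possible with 1 library per genotype. Routines were tested on simulated data. TMM factors came from edgeR 4.0.16 in R 4.3.3, and all else from scikit-learn 1.9.0, pandas 2.3.3, scipy 1.17.1, matplotlib 3.10.9 and numpy 2.4.6 in Python 3.11.15. Transcript lengths and gene positions came from GENCODE vM21.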

Additional observations from a re-analysis of the deposited data

Results flagged for a closer look

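Cd44 had opposite signs in 2 cell classes: its log2 ratio of knockout over WT was 1.07 in endothelial cells and -0.40 in Krt8/Krt18 positive cells. The difference was not tested, and the endothelial sign was lost when cells were averaged by their own CPM.

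The barcodes left out for over 10% mitochondrial UMIs, 523 in the knockout and 1654 in WT, held the members too. Without mitochondrial UMIs, Spp1 was 2246 CPM in the knockout and 1077 CPM in WT, Cd44 was 790 CPM and 747 CPM, and Dmp1 was 32.0 CPM (129 UMIs in 27 barcodes) and 2.04 CPM (19 UMIs in 12 barcodes).

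Among the barcodes found in both libraries, those passing the macrophage gate held Spp1 at 15776 CPM in the knockout (44 UMIs in 4 barcodes) and 10651 CPM in WT (78 UMIs in 10 barcodes), without mitochondrial UMIs.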

How the results depend on the processing

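Log2 ratios of knockout over WT in Krt8/Krt18 positive cells were recomputed for each member. For Spp1 (0.97) the ratio was 1.21 with TMM scaling, 0.65 relative to genes of like length, 1.17 as the mean of cells' own CPM, 1.01 with at most 5% mitochondrial UMIs and 1.03 with stricter gates. For Dmp1 (0.89) it was 1.13 with TMM scaling, 1.24 as the mean of cells' own CPM and 1.31 with stricter gates. For Cd44 (-0.40) it was -0.16 with TMM scaling, 0.0032 relative to genes of like length, -0.33 as the mean of cells' own CPM, -0.37 with at most 5% mitochondrial UMIs, -0.43 with stricter gates and -0.39 with looser gates. Cd44 also changed sign in Postn-type fibroblasts, to 0.12 relative to genes of like length and 0.054 with looser gates, and in endothelial cells, to -0.073 as the mean of cells' own CPM, and was 0.069 there with stricter gates. The cause of these changes was not tested. The 7 genes higher and 9 lower became 19 and 51 at 20 CPM, 81 and 435 with no limit on the level, and 33 and 2 with TMM scaling. Including the barcodes found in both libraries, an alternative chosen after the data were seen, moved none of the 9 member ratios beyond its counting interval. All 24 of 24 co-detection values stayed within 1.5 times. The shares of the 2 genes bound how far such a value can move, so this says little about stability. Without thinning, the Spp1 and Dmp1 value in WT went from 1.45 to 1.13. No paired analysis was possible because each genotype has 1 library. With 6 knockout macrophages and 19 knockout Pi16-type cells, depth limits what can be read there. Gates moved the Spp1 log2 ratio in endothelial cells (2.77) to 1.80 when stricter and 3.38 when looser, and in Pi16-type fibroblasts (0.95) to 2.11 when looser.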
